A study of Oryza sativa with 4 samples.

Results

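Rice genes named FNR, RCABP89, PSAH, PSB28, TPT and CFBP1 were followed in leaves kept in the dark under 30% CO2. They were found by symbol or synonym in a table of rice genes. The 6 names led to 8 genes with 11 probe sets, out of 17905 genes and 57194 probe sets on the array, because 3 genes carry the synonym FNR. The treated group was 2 samples of Oryza sativa cultivar Senia at the 2-leaf vegetative stage, held in sealed bags brought to 30% CO2 for 6 h. The control group was 2 samples of the same cultivar and stage in a normal atmosphere labelled 0.04% CO2. Both groups spent the 6 h in the dark at 27 ± 2 °C after growth in days of 16 h light and 8 h dark, and each sample pooled the leaves of 10 plants. The labels describe bags for the treated plants only, so bag and gas cannot be told apart.

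In chloroplasts, light-harvesting proteins pass energy to photosystems II and I, and electrons drawn from water move through both to ferredoxin. In its leaf form, ferredoxin-NADP reductase (FNR) then uses those electrons to make NADPH for the Calvin cycle. Triose phosphate made by the cycle leaves the chloroplast through the triose phosphate translocator (TPT), in exchange for phosphate. In the cytosol, fructose-1,6-bisphosphatase (CFBP1) takes it towards sucrose. In darkness this electron transport stops, and leaf starch leaves the chloroplast mainly as maltose and glucose.

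Under 30% CO2, 4 of the 8 genes fell, 2 rose and 2 did not pass. Signals for a light-harvesting protein (RCABP89), a photosystem I subunit (PSAH), the translocator (TPT) and 1 of the 3 FNR genes were reduced to between 39.3% and 55.7% of control. The names of that FNR gene, LOC4342399, do not say which form it encodes, so a part in photosynthesis is not shown here. PSB28, for a photosystem II protein, stood at 208% of control and CFBP1 at 377%. A change passed where limma's p-value, adjusted over all probe sets, was under 0.05. By that rule 22.4% of all genes passed (8.93% higher and 13.5% lower), and 11.5% of all probe sets (4.73% higher and 6.78% lower), of which the 8 genes had 3 of 11 higher and 5 lower. With p-values adjusted over genes instead, 31.2% of all genes passed, and the calls of the 8 genes were the same. The 6 names were proposed with their changes known, so their high share is no evidence about photosynthesis genes at large. The median log2 fold change was -0.70 over the 8 genes and -0.08 over all genes.

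**Figure D1:**
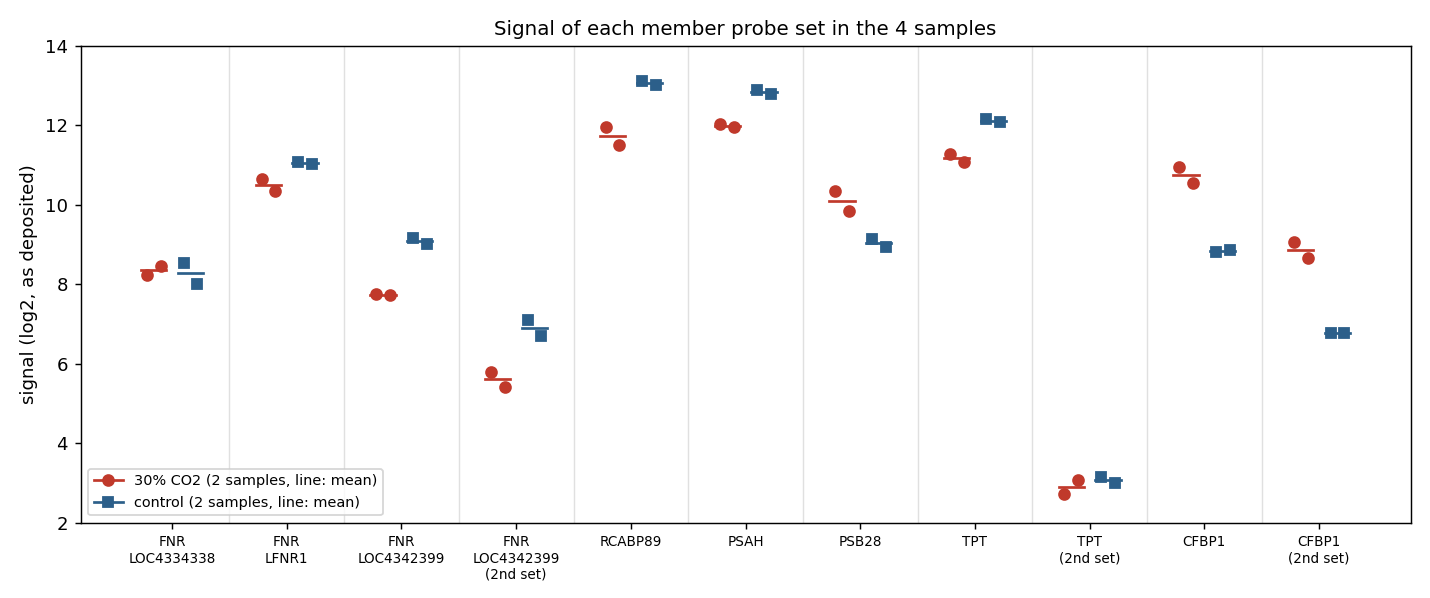
Deposited log2 signal of the 11 probe sets in each of the 4 samples, with 30% CO2 as circles on the left of each column, control as squares on the right and the group mean as a line. The groups stand apart in 9 of the 11 columns, and mix in FNR LOC4334338 and in the dim second probe set of TPT.

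The light-harvesting gene RCABP89 (LOC4333359, also LHCP), for a chlorophyll-binding antenna protein, fell. Its log2 signal was 11.96 and 11.51 in the CO2 samples, against 13.12 and 13.01 in the controls. Both CO2 samples were lower than both controls, with a gap of 1.05 between the groups and of 0.46 between the CO2 replicates. The log2 fold change was -1.33 ± 0.19 (SE; 95% interval -1.82 to -0.84; limma adjusted p = 0.0186). The control signals lay near the top of the array, where the highest values of the control samples were 13.65 and 13.69, and signals in that range may understate a difference. In whole leaves, fewer cells of a type and less RNA per cell cannot be told apart.

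PSAH (LOC4339593, also GOS5 and PSI-H) encodes a small subunit of photosystem I, known from Arabidopsis as part of the site where mobile antenna docks. Its log2 signal was 12.04 and 11.95 in the CO2 samples and 12.89 and 12.79 in the controls. The replicates of each group lay within 0.10 of each other and the groups were 0.75 apart. PSAH fell by 0.84 on the log2 scale (SE 0.12; limma adjusted p = 0.0196).

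PSB28 (LOC4326537) went the other way. Its product is known from cyanobacteria as a factor bound to photosystem II while the complex is being assembled. The log2 signal was 10.35 and 9.85 in the CO2 samples and 9.14 and 8.93 in the controls. Both CO2 samples were above both controls, by at least 0.70, although the CO2 replicates were 0.51 apart. The log2 fold change was 1.06 ± 0.21 (SE; 95% interval 0.51 to 1.60) and the limma adjusted p of 0.0421 lay close to the threshold. The log2 fold changes of PSB28 and PSAH, both for photosystem proteins, lay 1.90 apart. Both were chosen with these changes known, so the difference is given with no test.

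Of the 3 genes named FNR, 1 fell and the other two did not pass. LFNR1, named as a leaf form of the enzyme, had log2 signals of 10.65 and 10.35 in the CO2 samples and 11.08 and 11.02 in the controls. Both CO2 samples lay below both controls, but the log2 fold change of -0.55 ± 0.15 (SE; 95% interval -0.94 to -0.15) did not pass (limma adjusted p = 0.0962). The gene LOC4342399, whose names in the table do not say which form it encodes, had 7.76 and 7.72 in the CO2 samples and 9.17 and 9.01 in the controls. The CO2 replicates of this gene differed by 0.04 and the groups by at least 1.25.

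LOC4342399 fell by 1.35 on the log2 scale (SE 0.13; limma adjusted p = 0.00789), to 39.3% of control. By its suffix, that probe set may also detect related transcripts, and the gene's second set, which is not of that type, gave 5.80 and 5.42 in the CO2 samples and 7.10 and 6.70 in the controls. The second set fell by 1.29 (SE 0.21; adjusted p = 0.0264). The remaining gene, LOC4334338, had 8.24 and 8.47 in the CO2 samples and 8.54 and 8.02 in the controls, so that its groups overlapped. Its log2 fold change was 0.07 ± 0.22 (SE; 95% interval -0.49 to 0.64; adjusted p = 0.884).

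LOC4342399 was the FNR gene that passed, while LFNR1 was lower in both CO2 samples without passing (unadjusted p = 0.0163). The log2 fold change of LOC4342399 minus that of LFNR1 was -0.80, and minus that of LOC4334338 it was -1.42. Whether the FNR genes differ in their change was not tested.

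**Figure D2:**
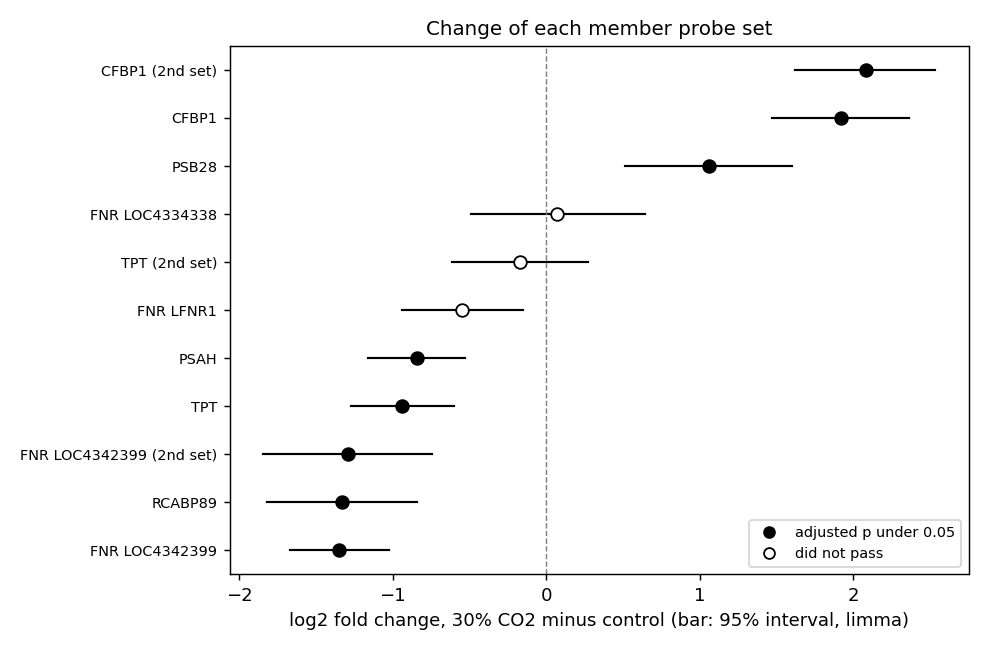
Log2 fold change (30% CO2 minus control) of each of the 11 probe sets with its 95% interval from limma, filled where the adjusted p was under 0.05. CFBP1 and PSB28 lie right of 0, the intervals of FNR LOC4334338 and of the second TPT set include 0, and LFNR1 lies left of 0 without passing.

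TPT (LOC4326365), for the exporter of triose phosphate, fell on its bright probe set. The log2 signal was 11.27 and 11.09 in the CO2 samples and 12.15 and 12.09 in the controls, so that both CO2 samples were lower, by at least 0.82. The log2 fold change was -0.94 ± 0.13 (SE; limma adjusted p = 0.0175). The second TPT set read 2.73 and 3.08 in the CO2 samples and 3.15 and 3.0 in the controls. These values overlap and lie below 3.90, the median of all probe sets. That set gave -0.17 ± 0.17 (adjusted p = 0.613). As the mean of both sets TPT gave -0.55, barely under 0.05 (limma adjusted p = 0.0496). That p-value was adjusted over genes and not over all probe sets, so it is not the rule used above.

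CFBP1 (LOC4325071, also MOC2), for the cytosolic fructose-1,6-bisphosphatase that commits triose phosphate to sucrose, had the largest change of the 8 genes. Its log2 signal was 10.95 and 10.55 in the CO2 samples and 8.81 and 8.86 in the controls. The groups were at least 1.69 apart, against 0.40 between the CO2 replicates. It rose by 1.92 on the log2 scale (SE 0.17; 95% interval 1.47 to 2.36; limma adjusted p = 0.00744), and 4.83% of all genes changed by more in either direction.

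The second CFBP1 set, of the type that may detect related transcripts, gave 9.07 and 8.65 in the CO2 samples and 6.78 in each control. It was higher by 2.08 (SE 0.18; adjusted p = 0.00678), so both sets of the gene rose. The log2 fold changes of CFBP1 and TPT, both on the route from triose phosphate to sucrose, lay 2.85 apart. This difference too is a description with no test.

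**Figure D3:**
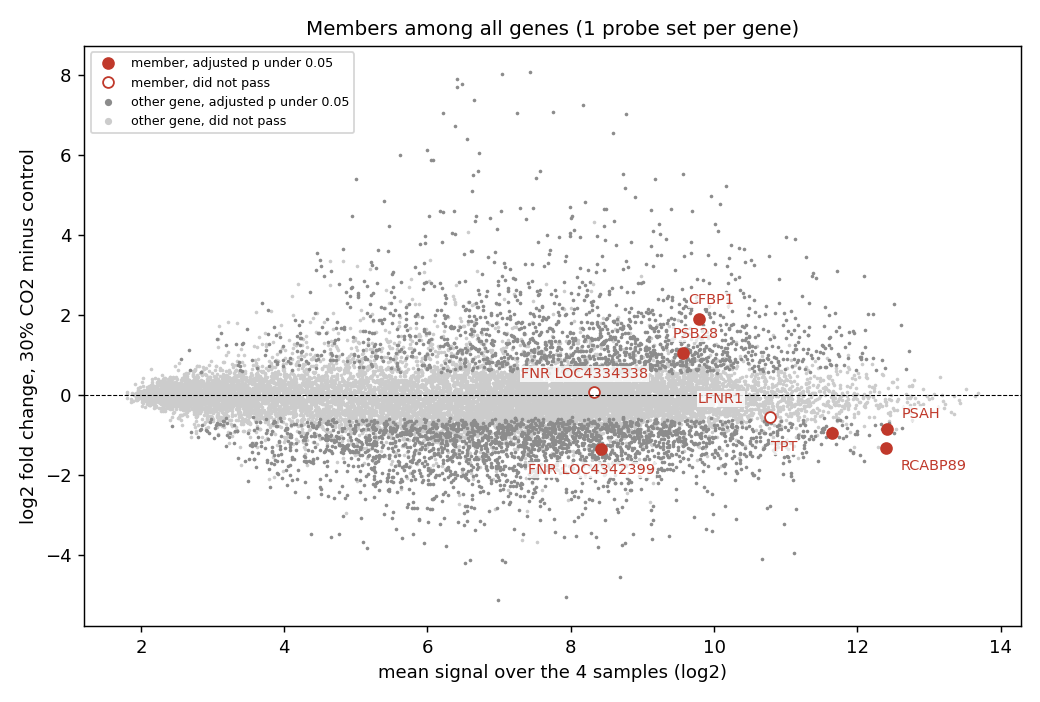
Log2 fold change (30% CO2 minus control) against mean log2 signal for 17905 genes, 1 probe set each, with darker dots for genes past the threshold and the 8 genes in red. CFBP1 stands highest of the 8, and RCABP89, PSAH and TPT lie among the brightest genes on the array.

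CO2 replicate 1 read higher than replicate 2 in each called probe set of the 8 genes, whether it fell or rose. In all 5 that fell, replicate 2 was therefore further from the control mean, and in all 3 that rose, replicate 1 was. How often this holds among all called probe sets was not counted. Control replicate 1 also read higher than control replicate 2 in the called sets of LOC4342399, RCABP89, PSAH, PSB28 and TPT, but not in those of CFBP1. Over all probe sets CO2 replicate 1 stood further from the controls, at -98.7 on the first principal component. CO2 replicate 2 was at -62.7 and the controls at 78.0 and 83.3. Groups did not overlap in 7 of the 8 genes, against 67.5% of all genes, and in 9 of the 11 probe sets, against 53.9% of all probe sets.

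With 2 samples a group, calls across the whole array were lost when a sample was left out. Without CO2 replicate 2, 2477 of all 57194 probe sets passed in limma's test and CFBP1 was the 1 of the 8 genes called (adjusted p = 0.0451). Without any other sample, 0 probe sets passed on the whole array, so the loss is not particular to the 8 genes (5 to 7 of the 8 had an unadjusted p under 0.05 over the 4 fits, as did 9246 to 14432 of all probe sets). The log2 fold changes then ran from 1.71 to 2.12 for CFBP1, 0.81 to 1.31 for PSB28, -1.56 to -1.10 for RCABP89, -1.42 to -1.27 for LOC4342399, -1.02 to -0.85 for TPT and -0.89 to -0.80 for PSAH.

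Among other named genes of the same pathway, the share of falls was close to that of all genes. The 8 lists built on gene names, from light harvesting to sucrose synthesis, named 75 genes. Of these, 42 are encoded in the plastid and had no probe set here. They include 14 of 17 genes listed for photosystem II and 17 of 19 for ATP synthase and the NDH complex. The lists held 31 genes with a probe set, of which 23 are not among the 8 described above. Of these 23, 0 rose in limma's test, 3 (13%) fell and 20 did not pass, against 8.93% higher and 13.5% lower of all genes. At an unadjusted p under 0.05, 0 of the 23 were higher and 7 (30.4%) lower, against 17.3% and 26.5% of all genes. The median log2 fold change of the 23 was -0.21. The 3 that fell were OsPPT2, RCABP69 and OsSPS4F.

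Among light-harvesting genes RCABP89, chosen with its change known, fell, and of the other two 1 fell. That count is too small to set against the 13.5% of all genes that fell. RCABP69 (LOC4343583) had log2 signals of 12.11 and 11.84 in the CO2 samples and 12.70 and 12.69 in the controls, a fall of 0.72 (SE 0.15; limma adjusted p = 0.0445), measured on a set whose suffix marks possible binding to related transcripts. It was lower in both CO2 samples than in both controls, as RCABP89 was. CAB2R stood at -0.30 ± 0.12 (adjusted p = 0.21), and its second set at -0.78 ± 0.20 (adjusted p = 0.0779).

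In photosystem II, PSB28 rose and OEE3 (LOC4343515), for a protein of the oxygen-evolving complex, stood at -0.39 (adjusted p = 0.142). In photosystem I, PSAH fell and PSAG was at -0.21 (adjusted p = 0.713). The 2 other electron carriers with a probe set were plastocyanin (PETE) and the Rieske protein of cytochrome b6f (petC). They were at -0.32 and -0.09 and did not pass (limma adjusted p = 0.174 and 0.74). Of the chloroplast ATP synthase and NDH complex, ndhM was at -0.35 (adjusted p = 0.192) and atpI at -0.03 (adjusted p = 0.932).

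In the Calvin cycle list, with rubisco activase, 0 of 6 genes passed in limma's test, where 22.4% of all genes did, so that a list this short need not differ from the array. The median log2 fold change of the list was -0.04, against -0.08 over all genes. The smallest p-values were those of RBCS1 (-0.39; unadjusted p = 0.0421, adjusted p = 0.175) and of the ribulose-phosphate epimerase gene RPE (-0.30; unadjusted p = 0.0501, adjusted p = 0.195). RBCS1 was the only 1 of the 6 with an unadjusted p under 0.05, and its signal of 2.86 in CO2 samples and 3.24 in controls was below the array's median. The rubisco small subunit gene RBCS (LOC4351966) read 13.64 in CO2 samples and 13.65 in controls, at the top of the array, where a change could be hidden. Its dimmer sets read 11.06, 10.26 and 3.36 in CO2 samples and 11.10, 10.30 and 3.45 in controls, and did not pass. By their suffix, the brightest RBCS set and those at 11.06 and 3.36 may also detect related transcripts.

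Of the other 5 named sucrose synthesis genes, 0 rose (limma; 0 also at an unadjusted p under 0.05) and 1 fell, beside 8.93% higher and 13.5% lower of all genes, and so short a list need not differ from the array. OsSPS4F (LOC4345220), for a sucrose phosphate synthase, had log2 signals of 8.50 and 8.36 in the CO2 samples and 9.08 and 8.99 in the controls, a fall of 0.60 (SE 0.13; limma adjusted p = 0.0474). Its CO2 samples were both lower than its controls. The sucrose phosphatase genes OsSPP1 and OsSPP2 stood at -0.02 and 0.10 and the synthase genes OsSPS2F and OsSPS3F at 0.35 and -0.39, none of them past the threshold.

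Among plastid transporters, OsPPT2 (LOC4345334), named as a phosphoenolpyruvate translocator, fell too. Its log2 signal was 6.84 and 7.41 in the CO2 samples and 9.09 and 8.80 in the controls, a fall of 1.82 (adjusted p = 0.015). Both CO2 samples were lower than both controls. Its relatives OsPPT1 and OsPPT3 were at 0.27 and 0.62 without passing, and for OsPPT3 the CO2 samples were far apart, at 8.77 and 7.31 against 7.49 and 7.35 in controls. MEX1, for the maltose exporter, was at -0.49 (adjusted p = 0.212).

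**Figure D4:**
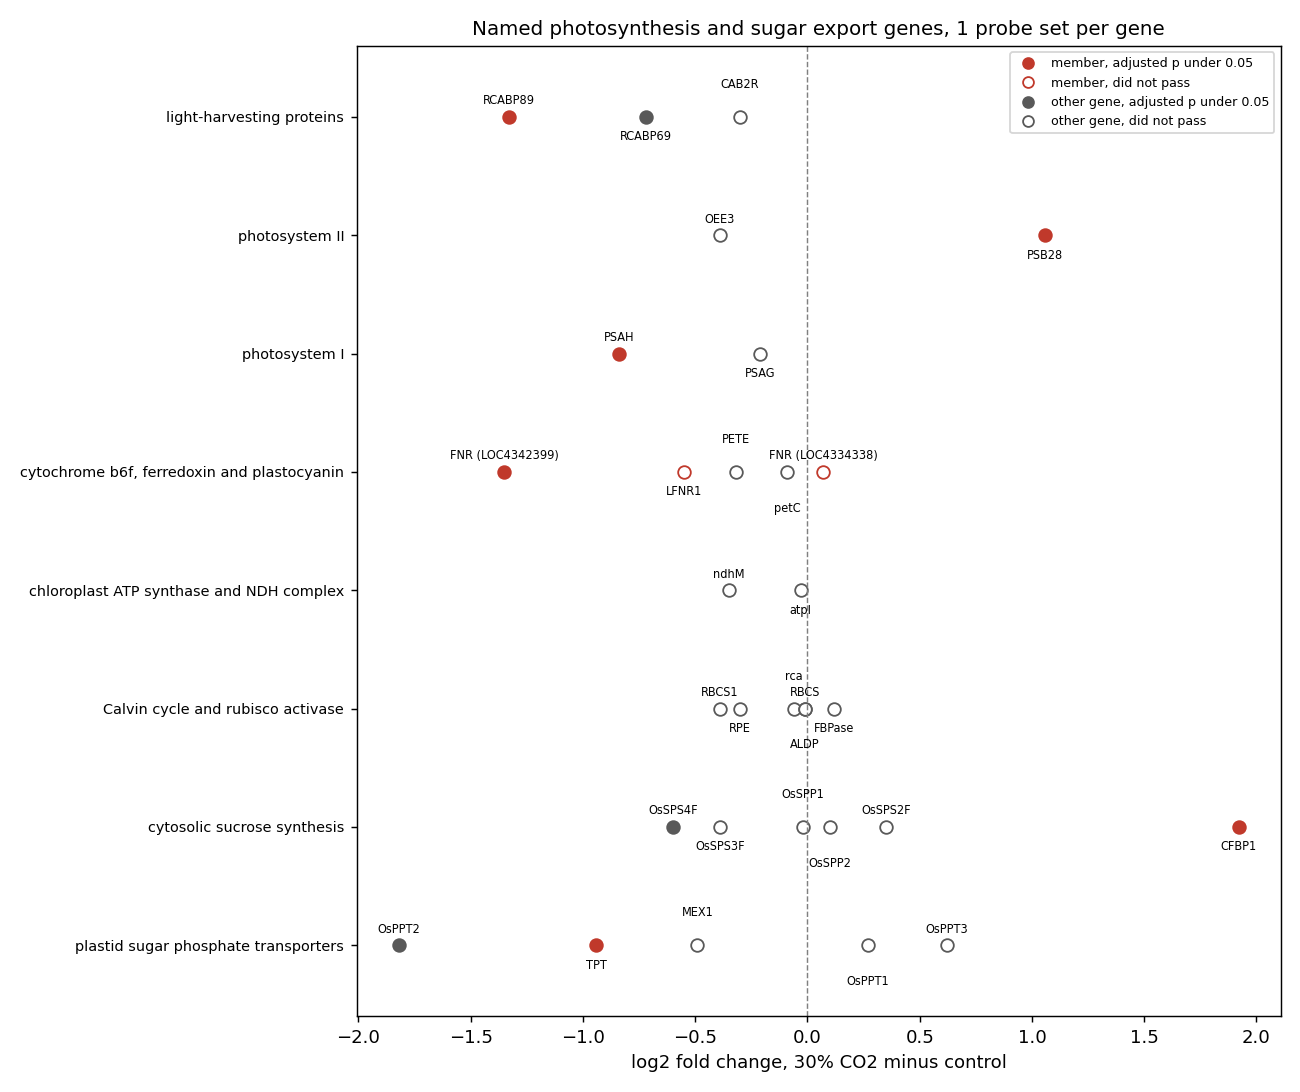
Log2 fold change (30% CO2 minus control) of 31 named genes in 8 lists, 1 probe set per gene, with the 8 genes described first in red, other genes in grey and filled points past the threshold. CFBP1 and PSB28 are the filled points right of 0, the Calvin cycle row has no filled point, and OsPPT2 is furthest left at -1.82.

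Named genes with the most similar profile were found by the distance between the 4 log2 values after centring each gene on its mean, over 2431 named genes. So few values, shaped by 1 contrast, give many near matches, so these are a description only. Nearest to CFBP1 were MGD3 (distance 0.15), for a galactolipid synthase, OsPUB4 (0.16) and OsPK1 (0.19), higher by 1.82, 2.05 and 2.10 on the log2 scale. Nearest to PSB28 were GAP1 (0.08), OsWRKY24 (0.12) and CML3 (0.16).

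The closest profiles to PSAH were those of MSRB3 (0.05), gRASC8 (0.06) and MSRB5 (0.06), where the MSRB names stand for methionine sulfoxide reductases. TPT was closest to CHL1 (0.04), HSFA2D (0.06) and BADH2 (0.08). RCABP89 was closest to OsPRDA1 (0.13), BASS4 (0.17) and LOGL9 (0.19). BASS4 was also near LOC4342399 (0.15), after OsPP2C78 (0.01) and beside ADPase (0.15). LFNR1 was closest to AGO4A (0.04), PDS (0.05) and HO1 (0.06), and LOC4334338 to BGLU1 (0.05), CDC2-2 (0.06) and TID1 (0.09).

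The samples carried the signals of leaf. The 4 leaf mesophyll markers with a probe set (rca, CAB2R, PORB and GLO1) ranged from 9.45 to 13.01 in CO2 samples and 11.30 to 13.08 in controls, and 1 of them, PORB, fell (-1.85). Of the endosperm, root, pollen and dividing-cell markers with a probe set, 1 of 15 passed, the iron transporter gene IRT1 (-2.47; limma adjusted p = 0.005). The 4 root markers ranged from 2.59 to 6.84 in CO2 samples and from 2.57 to 7.69 in controls. The 5 endosperm markers ranged from 2.02 to 8.60 and from 1.91 to 8.87, with GLUA2 the brightest in both groups. Pollen markers reached 2.84 in CO2 samples and 2.54 in controls, and dividing-cell markers 5.50 and 5.93. The part of cell makeup in the changes was not tested. Across probe sets, which are not independent, Pearson's r reached 0.989 for the pair of CO2 samples and 0.993 for the pair of controls, and ran from 0.951 to 0.968 for pairs of unlike samples.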

How the data were processed

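Leaf RNA was labelled with biotin and hybridised to Affymetrix rice arrays, 4 samples in all. The authors deposited a table of log2 signal by probe set and sample. The submitters' processing notes name RMA and limma without versions or settings. No rescaling was applied. The table holds no detection calls, and having only 4 arrays limits the precision.

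Gene names came from the array annotation and a table of rice genes (assembly ASM3414082v1, names only). Of 57194 probe sets, 22436 had 1 gene, 95 had several and 34663 are unnamed here. For each gene the probe set brightest on average over the 4 samples stood for it. The groups were compared in R 4.3.3 by limma 3.58.1 (functions lmFit and eBayes, no block, two-sided, Benjamini-Hochberg over all probe sets, threshold 0.05), with 2 residual degrees of freedom and 2.85 added by the prior. The procedure was tested on simulated data. Figures were drawn with matplotlib 3.10.9.

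The genes and lists were chosen with earlier results of these data known. Of the genes matched by name to the lists, 7 matches were left out because the name also belongs to another gene, place or list. Genes were named by rule: the 8 genes, up to 4 per list past the threshold (otherwise the 2 with the smallest p), and the 3 nearest profiles of each. Other list genes are given for completeness. P-values measure the spread between pools of plants. Over all probe sets, same-numbered samples deviated with a correlation of -0.1015. That value gives no sign of pairing by number but cannot exclude it, so a fit with a replicate block is given below. Alternatives were the replicate block, quantile normalization, a filter on dim sets and an intensity trend with a robust prior. Others were leaving out sets whose suffix marks possible binding to related transcripts, leaving out each sample, means of probe sets and adjustment over genes.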

Additional observations from a re-analysis of the deposited data

How the results depend on the processing

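Most alternatives leave the fold changes as they are and alter only the spread or the adjustment, and groups that do not overlap fix the direction, so the unchanged direction of the 8 called probe sets is no sign of stability. The counts of 6 genes and 8 probe sets called did not change after quantile normalization or with an intensity trend and robust prior. Of all 57194 probe sets, 7084 and 6925 were called in these fits, against 6583 in the main fit. With a filter at the median level, 6 genes and 8 of 10 probe sets were called, beside 7143 of all 28597 probe sets kept. The 6 genes also passed as means of probe sets and adjusted over genes. Adjusted over genes, LFNR1 had a limma adjusted p of 0.0514. With the replicate block 1691 probe sets were called in all, 4 of the 11 probe sets, 2 of the 8 genes and 2 of the 31 pathway genes. RCABP89, PSAH, PSB28 and TPT did not pass (limma adjusted p = 0.0563, 0.0695, 0.0674 and 0.0644). A block with crossed numbers, chosen after seeing the data because of the negative correlation, gave 3478, 3, 2 and 3. These blocks leave 1 residual degree of freedom. Leaving out 1 sample, where a lone sample is assumed to vary like the other group, gave 0 to 2477 probe sets called in all (limma; 9246 to 14432 at an unadjusted p under 0.05), 0 to 2 of the 11 probe sets, 0 to 1 of the 8 genes and 0 to 2 of the 31 pathway genes. The 1 gene was CFBP1, without CO2 replicate 2. FNR LOC4334338, not called, changed sign without CO2 replicate 2 (-0.04) and without control replicate 2 (-0.19) and ran from -0.19 to 0.34. The dim TPT set ran from -0.35 to 0.00, the 0.00 without CO2 replicate 1. Without sets whose suffix marks possible binding to related transcripts, 5096 of all 47225 probe sets passed. Among the genes described first, 5 of 7 genes and 6 of 9 probe sets did. The gene missing from that count is LOC4342399, whose brightest set was left out. Its second set still passed there (-1.29; limma adjusted p = 0.0275).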
